A study of Mus musculus with 6 samples.

Results

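The transcripts described here belong to glycolysis and to the response of cells to low oxygen. The tissue was the whole mouse embryo of embryonic day (E) 8.5, either with Brg1 deleted (Brg1d/d, 3 arrays) or with Brg1 kept (Brg1fl/fl, 3 arrays). Brg1 is an ATPase of the SWI/SNF complexes, which move nucleosomes. A list of 35 genes was followed by gene name, among 19505 genes that the array names: 20 genes of glucose uptake, glycolysis and its lactate and pyruvate branch, and 15 genes induced by hypoxia. Of these, 34 were measured, all well above background on all 6 arrays. Gapdh, the glyceraldehyde phosphate dehydrogenase of glycolysis, has no probe under its own name and was not measured.

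Glycolysis splits glucose into pyruvate in the cytoplasm and yields ATP without oxygen. When oxygen is low, the prolyl hydroxylases Egln1, Egln2 and Egln3 no longer mark the hypoxia-inducible factors Hif1a and Epas1 for destruction through Vhl. The stabilised factors pair with Arnt, bind promoters at a short core motif and raise glucose transporters, glycolytic enzymes, Vegfa and genes that restrain mitochondria. Early mouse embryos rely strongly on glycolysis at this stage, while the heart starts to beat and the circulation is set up.

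In both groups the dam received tamoxifen by intraperitoneal injection. Brg1d/d embryos are the conditional knockout of the floxed gene, and Brg1fl/fl embryos, with the floxed gene intact, are the control that the labels call wild type. The Cre driver, the deleted exons, the day of injection and the number of embryos per sample are not given in the sources used. The labels call the 3 samples of a group biological replicates, numbered here as knockouts 1 to 3 and controls 1 to 3. From each, 250 ng of RNA was labelled with Cy3 and hybridised to a 1-colour Agilent array. A level is the log2 signal of a probe less the 75th percentile of its array, so a negative level lies below that percentile. A difference is Brg1d/d minus Brg1fl/fl on the log2 scale with its standard error (SE) from limma, a moderated linear model fitted to all 27847 kept probes. A gene was called higher or lower where its adjusted p was under 0.05.

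Smarca4, the gene of Brg1, stood at 1.49, 2.65 and 2.0 in knockouts 1, 2 and 3 and at 5.28, 4.45 and 4.50 in controls 1, 2 and 3. It was 6.47-fold lower in the knockouts (difference -2.69 ± 0.36, limma adjusted p = 0.0114), with transcript still detected on each knockout array; the probe may lie outside the deleted part. The call was lost without knockout 3 (limma adjusted p = 0.0540). Each array had 68.5% to 73.5% of its 43379 spots well above background. Controls 1 to 3 shared 1 slide and a scan day with knockout 2, while knockouts 1 and 3 were each scanned on another day. The brightest spike-in signal was 12934 and 6905 units on knockouts 1 and 3, against 208551 to 241121 on the other 4 arrays. Where a result turns on a member, its difference comes with a same-day value, knockout 2 minus the mean of the controls, which carries no test. Heart muscle markers had a mean level of -2.15 to -1.45 in knockouts and 2.82 to 3.46 in controls, and all 10 were lower. Primitive red cell markers averaged 1.01 to 1.33 in knockouts, and -0.20, 2.52 and 2.65 in controls 1, 2 and 3. Trophoblast markers averaged 1.48 to 2.11 in knockouts and -0.38 to 0.34 in controls, and 5 of the 9 measured were higher. In RNA of whole embryos, fewer cells of a type and less RNA per cell cannot be told apart.

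In Brg1d/d embryos 4 of 34 measured members fell and 0 rose: the collagen hydroxylase P4ha2, the glycolytic activator Pfkfb3, the mitophagy receptor Bnip3l and the hexokinase Hk2. That is 11.8% of the members, against 10.6% of all 15021 genes tested. The members' count in the lower direction was 4 of 34, where 5.31% of all genes were lower, and in the higher direction 0 of 34, where 5.24% were higher. At an unadjusted limma p under 0.05 there were 14 members, against 4887 of all genes. The median difference of the members was -0.11, beside 0.07 for all genes tested, and the same-day medians were -0.19 and 0.00. An absolute difference under 0.5 was seen in 21 members (61.8%), against 60.8% of all genes, and 33 of 34 were under 1. Single arrays moved these counts: without knockout 1, knockout 3 or control 2 only P4ha2 was called (1 member) and 308 to 345 of all genes. Without control 3 there were 2 members and 928 genes, and without knockout 2 there were 4 members and 2917 genes.

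The arrays of both groups did not overlap for 16 members (47.1%), where 41.9% of all genes did not overlap. In 11 of these (32.4%) every knockout lay below every control, against 19.1% of all genes, and in 5 (14.7%) every knockout lay above, against 22.8%. The levels of members varied little between replicates: the median SD was 0.16 in controls and 0.14 in knockouts, beside 0.23 and 0.20 over all genes. With 3 arrays a group, a member that was not called is still not shown to be equal in both groups.

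**Figure D1:**
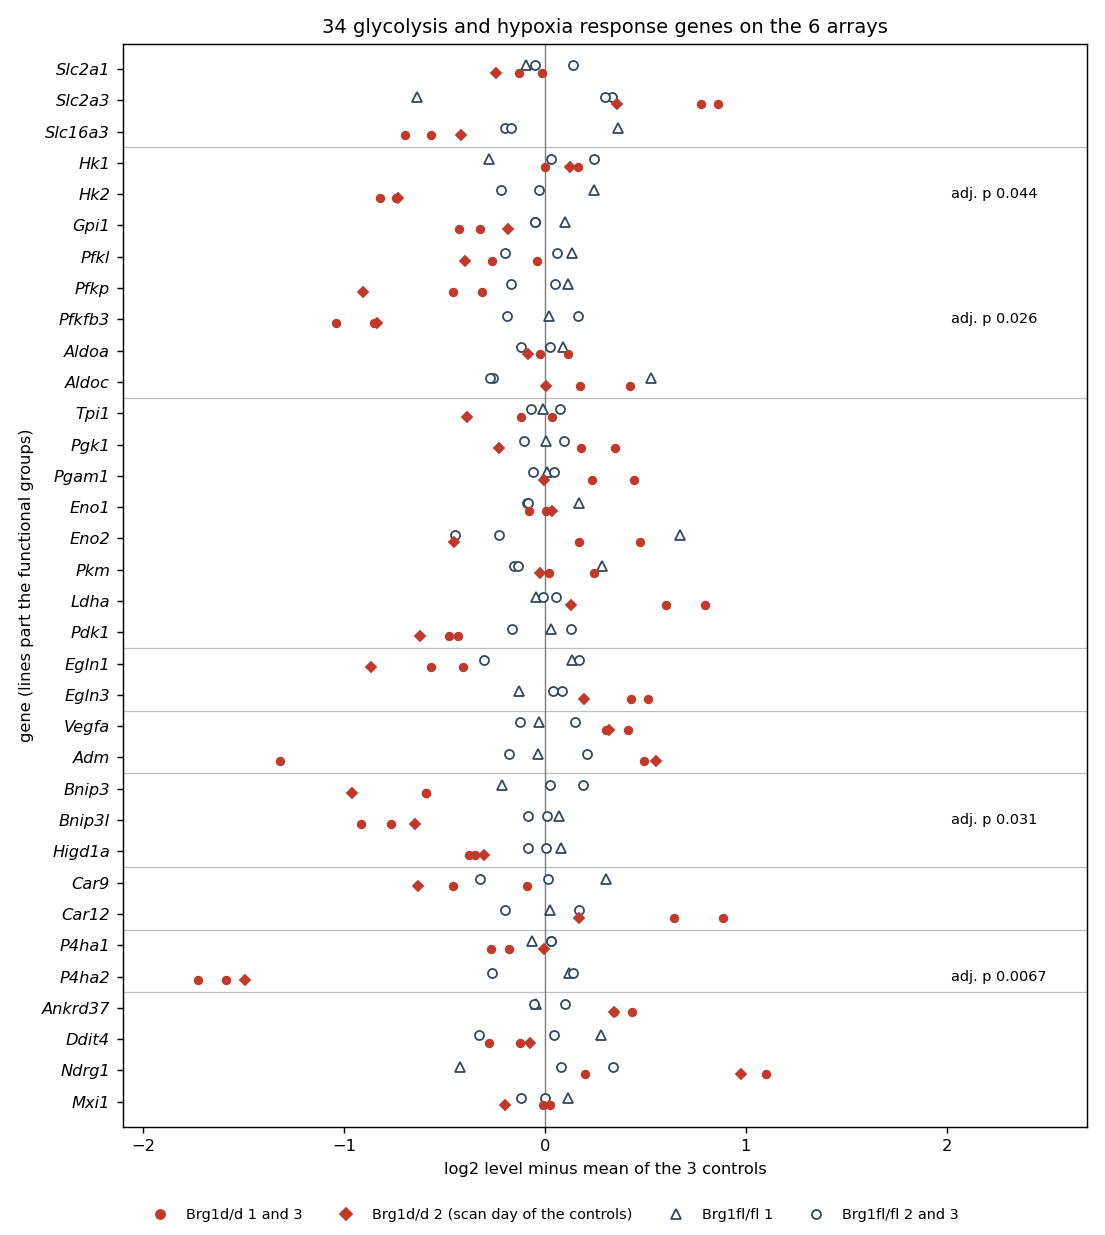
Log2 difference of each array from the mean of the controls (x axis) for the 34 measured members (rows, by role); filled symbols are Brg1d/d arrays (diamond, knockout 2) and open symbols Brg1fl/fl arrays (triangle, control 1), with the limma adjusted p of called members. P4ha2 lies apart from all other members, with its 3 knockout arrays well to the left of the controls. Tpi1, Pgk1, Pgam1, Eno1, Eno2 and Pkm of lower glycolysis sit around 0. The knockout arrays lie to the right of the controls for Ldha and to the left for Pdk1.

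P4ha2, the catalytic subunit of an enzyme that hydroxylates prolines of collagen, had the largest difference of the list. Its level was 1.56, 1.66 and 1.42 in knockouts 1, 2 and 3 and 3.27, 3.29 and 2.88 in controls 1, 2 and 3. Every knockout lay more than 1 log2 unit below every control. P4ha2 was 3.03-fold lower (difference -1.60 ± 0.18, 95% interval -2.03 to -1.18, n = 3 and 3, limma adjusted p = 0.00669), and the same-day value was -1.49. The call held without each array in turn (adjusted p up to 0.0437). With scan day as a block, or a block that separates knockouts 1 and 3 by their dim spike-in signal, the difference was -1.49. The spike-in split was read from the data and is named in no label. Both fits compare only knockout 2 with the controls, so they cannot decide whether the call held. The related subunit P4ha1 lay at 0.93 to 1.19 in knockouts and 1.13 to 1.22 in controls, a difference of -0.15 ± 0.15 (limma adjusted p = 0.503). A second P4ha1 probe gave -0.49 ± 0.21 (adjusted p = 0.16). A list read as decidua markers, which includes the matrix proteoglycans Dcn and Lum, averaged -2.35 to -2.22 in knockouts and -1.69 to -1.11 in controls. Of the 8 measured, 4 were lower (Lum, Des, Dcn and Cryab) and 1 higher, so the list does not show which way decidua differed. Lum lay at -2.50 to -2.31 in knockouts and 0.90 to 3.25 in controls. The higher one was Prl8a2, which encodes a decidual prolactin, at -2.52 to -1.18 in knockouts and -7.96 to -3.83 in controls (limma adjusted p = 0.0459). Prl8a2 was well above background on 3 knockout arrays but on only 1 control array. The part of decidua or heart muscle in the P4ha2 result was not tested.

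Upper glycolysis, from glucose phosphorylation to the split of the hexose, held 8 measured members, of which 2 fell and 0 rose, where 5.31% and 5.24% of all genes did, with a median difference of -0.27. Pfkfb3 makes fructose 2,6-bisphosphate, the strongest activator of phosphofructokinase. Its level was 1.41, 1.42 and 1.22 in knockouts and 2.28, 2.42 and 2.07 in controls, with no overlap. Pfkfb3 was 1.88-fold lower (difference -0.91 ± 0.16, limma adjusted p = 0.0256, same-day value -0.84). Hk2, the inducible hexokinase that traps glucose in the cell, stood at 3.55, 3.63 and 3.63 in knockouts and at 4.61, 4.34 and 4.15 in controls. The knockouts lay close together and below every control. Hk2 was 1.70-fold lower (difference -0.76 ± 0.17, limma adjusted p = 0.0437, same-day value -0.73). Hk1, the housekeeping hexokinase, ranged from 2.26 to 2.42 in knockouts and from 1.98 to 2.50 in controls, a difference of 0.10 ± 0.18 (limma adjusted p = 0.732). The other kept Hk1 probes gave 0.60, 0.18, 0.47 and 0.64 (limma adjusted p from 0.128 to 0.683), so the size of the Hk1 difference depended on the probe. Neither call was stable to the loss of single arrays. Pfkfb3 missed the threshold without knockout 1, knockout 3 or control 2 (limma adjusted p = 0.0915, 0.111 and 0.117). Hk2 missed it without any single array except control 1 (limma adjusted p = 0.0462 without that array, 0.0510 to 0.154 without the others).

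Phosphofructokinase commits the sugar to glycolysis. Pfkp, its platelet-type subunit, stood at -0.87, -1.46 and -1.01 in knockouts and at -0.44, -0.51 and -0.72 in controls, with every knockout lower. The difference was -0.56 ± 0.20 (limma adjusted p = 0.125, same-day value -0.90). The liver-type subunit Pfkl overlapped between groups, at 3.48 to 3.84 in knockouts and 3.67 to 4.01 in controls (difference -0.23 ± 0.18). Gpi1, which converts glucose 6-phosphate to fructose 6-phosphate, stood at 6.26, 6.50 and 6.36 in knockouts and 6.79, 6.64 and 6.64 in controls. Its difference of -0.31 ± 0.15 had a limma adjusted p of 0.203. The aldolases, which cleave fructose 1,6-bisphosphate, overlapped: Aldoa lay at 7.81 to 8.01 and 7.77 to 7.98 (difference 0.00 ± 0.15), and Aldoc, the brain form, at -0.28 to 0.13 and -0.56 to 0.24 (0.20 ± 0.26).

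Lower glycolysis and its lactate and pyruvate branch gave 8 measured members with 0 calls in either direction and a median difference of 0.07. At an unadjusted limma p under 0.05 there were 2, Ldha and Pdk1. Tpi1, Pgk1, Pgam1, Eno1, Eno2 and Pkm, which run from triose phosphates to pyruvate, overlapped between groups, with differences from -0.16 to 0.22. Their limma adjusted p ranged from 0.385 to 0.959. Their levels differed between knockout arrays. In 7 of the 8 members the mean of knockouts 1 and 3 exceeded knockout 2, as it did in 9101 of all 15021 genes. The median of this difference was 0.34, beside 0.10 over all genes. The same-day median was -0.13. Pgk1, which makes the first ATP of the pathway, shows it: 7.34, 6.76 and 7.17 in knockouts against 7.0, 7.09 and 6.89 in controls. The part of scan day and spike-in signal in this was not tested.

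Ldha, the lactate dehydrogenase subunit that regenerates NAD from pyruvate, stood at 7.78, 7.12 and 7.59 in knockouts and at 6.94, 7.04 and 6.98 in controls. Every knockout was above every control, but knockout 2 by only a narrow margin. The difference was 0.51 ± 0.21 (limma adjusted p = 0.150), and the same-day value was 0.13. Without knockout 2 the adjusted p was 0.0410. A second Ldha probe gave -0.06 ± 0.16 (limma adjusted p = 0.821), so the size of the Ldha difference depended on the probe. Pdk1, the kinase that shuts pyruvate dehydrogenase and keeps pyruvate from the mitochondria, stood at 1.10, 0.96 and 1.15 in knockouts and at 1.61, 1.71 and 1.42 in controls. Every knockout was lower, with a difference of -0.51 ± 0.16 (limma adjusted p = 0.0876, same-day value -0.62).

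Transport showed no call among 3 members. Slc2a1, the basal glucose transporter GLUT1, lay at 5.99 to 6.22 in knockouts and 6.14 to 6.37 in controls (difference -0.13 ± 0.15, limma adjusted p = 0.582). Slc2a3, the high-affinity transporter GLUT3, stood at 7.49, 6.98 and 7.40 in knockouts and at 5.99, 6.96 and 6.92 in controls. Control 1 was about 1 log2 unit below the other controls, and knockout 2 was barely above control 2. The difference was 0.67 ± 0.31 (limma adjusted p = 0.188). Slc16a3, which exports lactate, stood at 4.79, 5.07 and 4.92 in knockouts and at 5.85, 5.29 and 5.32 in controls, all knockouts being lower. Its difference was -0.56 ± 0.21 (limma adjusted p = 0.127, same-day value -0.42).

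**Figure D2:**
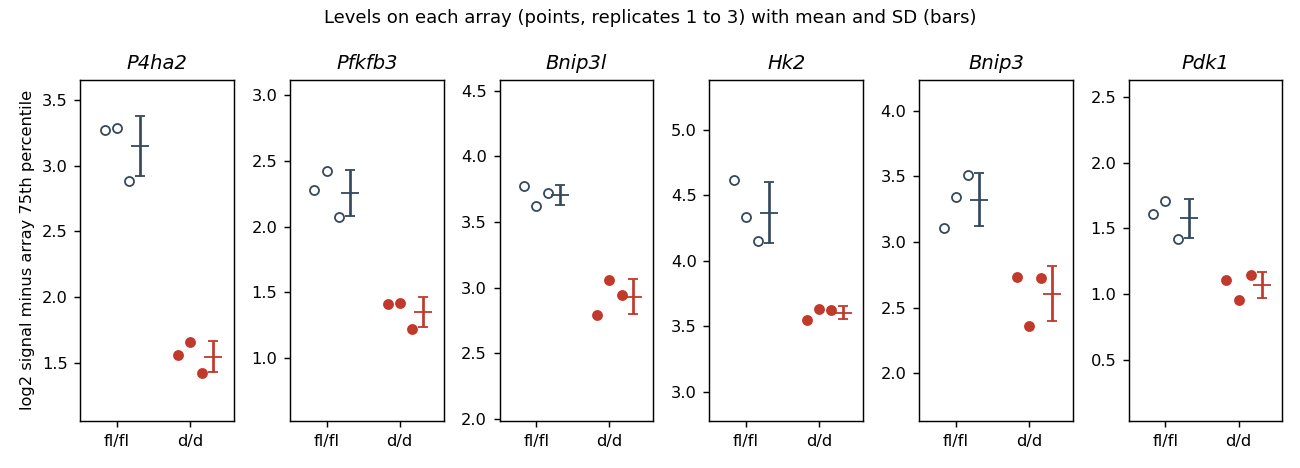
Level (log2 signal less the 75th percentile of its array, y axis) on each of the 6 arrays for P4ha2, Pfkfb3, Bnip3l, Hk2, Bnip3 and Pdk1; open points are Brg1fl/fl (fl/fl) and filled points Brg1d/d (d/d) in the order of replicates 1 to 3, and bars show mean and SD. No panel has overlap between groups, and the gap is widest for P4ha2; the y axes of all panels span the same range of log2 units.

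The 3 mitochondrial proteins induced by hypoxia all had lower levels in knockouts with no overlap, as did 19.1% of all genes, and 1 of the 3 was called, where 5.31% of all genes were called lower. Bnip3l, a receptor that directs mitochondria to autophagy and clears them from maturing red cells, stood at 2.79, 3.06 and 2.94 in knockouts and at 3.78, 3.62 and 3.72 in controls. It was 1.71-fold lower (difference -0.77 ± 0.15, limma adjusted p = 0.0309, same-day value -0.65). The call was lost without knockout 1, knockout 3, control 2 or control 3 (limma adjusted p = 0.109, 0.121, 0.116 and 0.0801). Red cell markers averaged -0.20 on control 1, where Bnip3l stood at 3.78, and the part of red cells in the Bnip3l result was not tested. Its relative Bnip3 stood at 2.73, 2.36 and 2.73 in knockouts and at 3.11, 3.35 and 3.51 in controls. The difference of -0.71 ± 0.19 missed the threshold (limma adjusted p = 0.0634, same-day value -0.96), and passed without control 1 (0.0426). Higd1a, a small protein of the inner membrane, lay at 3.97 to 4.05 in knockouts and 4.27 to 4.43 in controls (difference -0.34 ± 0.14, limma adjusted p = 0.152).

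Oxygen sensors and vessel signals showed no call. Egln1, the main prolyl hydroxylase that senses oxygen, stood at 0.02, -0.44 and -0.14 in knockouts and at 0.56, 0.59 and 0.12 in controls, all knockouts lower (difference -0.61 ± 0.21, limma adjusted p = 0.107, same-day value -0.86). Egln3, the hydroxylase that hypoxia induces most, stood on the other side, at 0.32, 0.00 and 0.23 in knockouts and -0.32, -0.11 and -0.15 in controls. Its difference was 0.38 ± 0.16 (limma adjusted p = 0.165). Vegfa, the growth factor that draws in blood vessels, stood at 1.36, 1.37 and 1.46 in knockouts and at 1.02, 0.93 and 1.20 in controls, all knockouts higher. Its difference was 0.35 ± 0.15 (limma adjusted p = 0.169, same-day value 0.32). The other Vegfa probes gave -0.02 ± 0.19 and 0.11 ± 0.19 (limma adjusted p = 0.945 and 0.702), so the size of the Vegfa difference depended on the probe. Endothelial markers beside it averaged -1.20 to -1.11 in knockouts and -0.17 to 0.08 in controls, with 2 of 7 lower. The vasodilator peptide Adm stood at -1.39 and -1.33 in knockouts 1 and 2 but at -3.20 in knockout 3, and at -1.92, -1.68 and -2.06 in controls. Knockout 3 set the sign of its difference (-0.09 ± 0.51); the same-day value was 0.55.

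Among the remaining hypoxia members, with 0 calls, directions were mixed. Ankrd37, an ankyrin repeat protein and direct target of hypoxia-inducible factor, stood at 1.36, 1.36 and 1.45 in knockouts and at 0.97, 1.12 and 0.96 in controls, all knockouts higher (difference 0.38 ± 0.14, limma adjusted p = 0.131). Ndrg1, a stress-responsive gene tied to differentiation, stood at 2.39, 2.27 and 1.49 in knockouts and at 0.87, 1.63 and 1.38 in controls. It had the largest positive difference of the list, 0.76 ± 0.31 (limma adjusted p = 0.154), and knockout 3 overlapped with control 2. Ddit4, an inhibitor of mTOR signalling, and Mxi1, an antagonist of Myc, overlapped between groups, with differences of -0.16 ± 0.20 and -0.06 ± 0.15. The membrane carbonic anhydrases, which handle acid at the cell surface, had low levels and opposite signs. Car9 lay at -3.23 to -2.68 in knockouts and -2.92 to -2.29 in controls, and Car12 at -2.27 to -1.55 and -2.64 to -2.27. Their differences were -0.39 ± 0.23 and 0.57 ± 0.23 (limma adjusted p = 0.280 and 0.148).

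The promoters of 6 members are shown because they set 3 of the called genes and Bnip3 beside Pgk1 and Ldha, which were not called and hold the same core motif. Hypoxia-inducible factor binds a core of ACGTG or GCGTG, and capitals mark these letters on the strand shown, or CACGT and CACGC where the match is on the other strand. Each sequence is the 250 bases before the annotated start in RefSeq, build GRCm38.p6, written 5′ to 3′ in the direction of the gene. The regions are chr11:54100674-54100923 on the plus strand for P4ha2, chr2:11502091-11502340 on the minus strand for Pfkfb3 (1 of its 2 annotated windows shown) and chr6:82774455-82774704 on the minus strand for Hk2. They are chr7:138909507-138909756 on the minus strand for Bnip3, chrX:106186850-106187099 on the plus strand for Pgk1 and chr7:46845554-46845803 on the plus strand for Ldha (1 of 2 windows).
P4ha2: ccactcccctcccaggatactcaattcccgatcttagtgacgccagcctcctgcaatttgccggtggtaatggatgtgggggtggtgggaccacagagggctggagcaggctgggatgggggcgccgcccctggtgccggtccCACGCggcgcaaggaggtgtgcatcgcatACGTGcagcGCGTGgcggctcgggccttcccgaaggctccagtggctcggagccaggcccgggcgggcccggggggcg
Pfkfb3: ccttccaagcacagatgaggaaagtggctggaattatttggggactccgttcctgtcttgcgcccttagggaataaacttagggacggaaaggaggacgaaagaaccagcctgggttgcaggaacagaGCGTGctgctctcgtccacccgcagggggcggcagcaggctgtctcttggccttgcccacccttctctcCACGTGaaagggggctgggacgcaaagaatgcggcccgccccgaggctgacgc
Hk2: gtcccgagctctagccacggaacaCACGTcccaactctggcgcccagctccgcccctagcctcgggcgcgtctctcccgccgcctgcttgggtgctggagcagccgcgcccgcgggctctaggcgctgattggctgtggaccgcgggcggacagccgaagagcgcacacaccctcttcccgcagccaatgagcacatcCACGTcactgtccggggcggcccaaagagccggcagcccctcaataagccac
Bnip3: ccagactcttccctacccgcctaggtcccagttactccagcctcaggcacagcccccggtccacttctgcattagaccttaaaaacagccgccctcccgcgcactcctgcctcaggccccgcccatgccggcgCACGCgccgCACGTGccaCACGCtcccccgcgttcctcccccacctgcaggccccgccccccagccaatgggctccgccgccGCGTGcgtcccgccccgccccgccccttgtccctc
Pgk1: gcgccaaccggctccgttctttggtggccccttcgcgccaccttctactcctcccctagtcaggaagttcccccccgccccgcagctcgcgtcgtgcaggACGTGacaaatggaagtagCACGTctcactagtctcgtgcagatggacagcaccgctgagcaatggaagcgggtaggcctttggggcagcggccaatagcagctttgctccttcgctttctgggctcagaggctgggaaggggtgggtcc
Ldha: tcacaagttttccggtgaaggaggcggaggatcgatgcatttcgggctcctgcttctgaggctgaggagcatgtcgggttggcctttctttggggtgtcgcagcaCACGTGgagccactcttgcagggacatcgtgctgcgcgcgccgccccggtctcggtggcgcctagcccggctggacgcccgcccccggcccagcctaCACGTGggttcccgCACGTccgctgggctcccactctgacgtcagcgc

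P4ha2 held 1 ACGTG and 2 GCGTG matches, Pfkfb3 2 and 1, Hk2 2 and 0, Bnip3 2 and 3, Pgk1 2 and 0, and Ldha 5 and 0. In Pfkfb3, Bnip3 and Ldha some of these lie within CACGTG, the E-box, which reads as ACGTG on both strands and was counted on each. Promoter windows were found for 32 of the 35 members; Slc2a3, Bnip3l and Ndrg1 were not matched. ACGTG on either strand was present for 19 of 32 members (59.4%), against 18.5% of all 27025 genes with a promoter in the table and 23.9% of the 11937 genes also tested on the arrays. GCGTG was present for 62.5%, against 30.9% and 47.0%, and either core for 87.5%, against 41.5% and 58.1%. The E-box CACGTG was present for 9.38%, against 6.86% and 9.52%. Members with several annotated starts have more windows; counted per window, ACGTG was in 22 of 45 (48.9%) against 16.6%. The 27 measured members with either core had a median difference of -0.13 and 3 calls, where 10.6% of all genes tested were called. The 4 without had a median of -0.05 and 0 calls. Bnip3l, which was called but not matched to a window, is in neither group. A match is a run of letters, not a bound site.

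For 16 members more than 1 probe was kept, and in 12 of them all probes had the same sign. Of the 56 member probes, 6 were called, all lower, where 10.6% of all genes tested were called and 5.31% were lower. The level of 1 probe cannot be set against that of another, but their differences can be read side by side. Pdk1 had a second probe at 0.65, 0.84 and 0.48 in knockouts and 1.75, 1.78 and 1.29 in controls, with a difference of -0.95 ± 0.20 (limma adjusted p = 0.0369), where the first missed the threshold. Pfkp had a probe at -3.25, -2.41 and -3.10 in knockouts and at 0.23, -0.53 and -1.22 in controls, a 5.34-fold lower signal (difference -2.42 ± 0.41, limma adjusted p = 0.0213). The other Pfkp probes gave -0.56 and -0.41, so the size of the Pfkp change depended on the probe. Pfkfb3 had probes at -0.90 (adjusted p = 0.114) and -0.15 (0.666) beside the called one. Bnip3l had a second probe at -0.21 (0.471), and Egln1 a second probe at -0.59 (0.0774), close to its first. Eno2 had a second probe at -0.56 (0.332), where its first gave 0.06. By the mean of a gene's kept probes, Bnip3, Hk2, P4ha2, Pdk1 and Pfkp were called, and Pfkfb3 and Bnip3l were not. In the array's own annotation, on mouse build mm7, the called probes lie at chr11:54088287-54088346 for P4ha2, chr2:11411110-11411169 for Pfkfb3 and chr6:82750613-82750672 for Hk2. Exons of mm7 were not looked up.

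**Figure D3:**
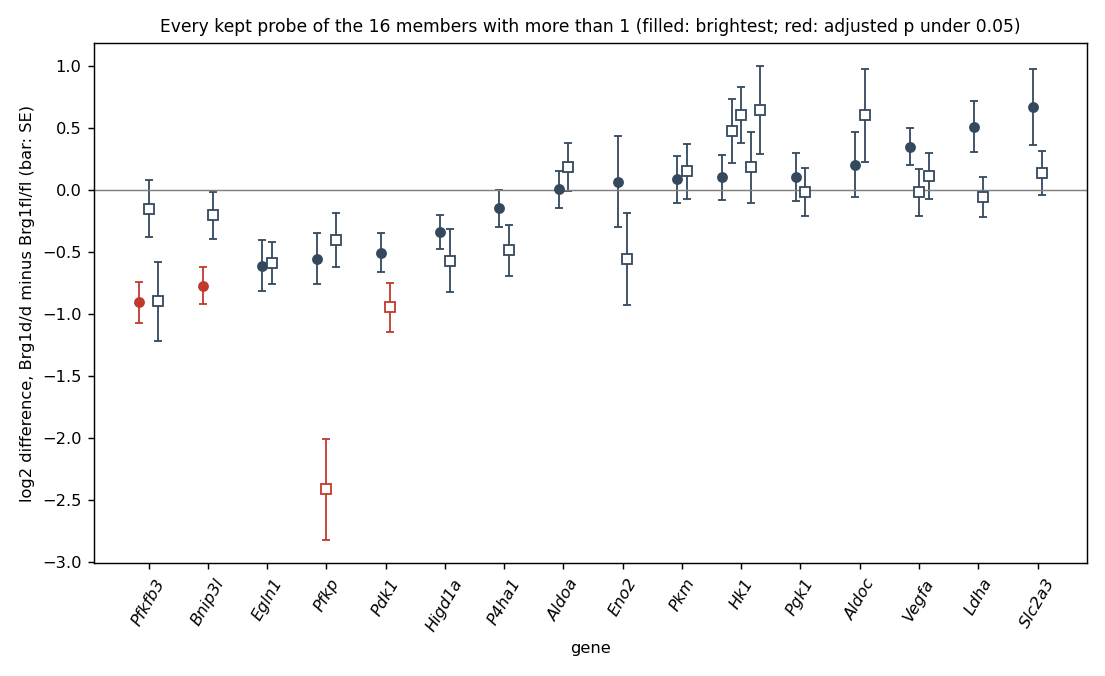
Log2 difference, Brg1d/d minus Brg1fl/fl (y axis, bars: SE), of every kept probe of the 16 members that have more than 1 kept probe (x axis); filled points are the probes with the highest mean, squares the others, and red points have a limma adjusted p under 0.05. All Hk1 probes lie above 0 and all Pfkp, Pdk1, Pfkfb3 and Egln1 probes below, with 1 Pfkp probe at -2.42.

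Related genes were read as lists beside the members, 98 of 102 genes measured, of which 3 rose and 10 fell, where 5.24% and 5.31% of all genes did. Without knockout 1, knockout 3 or control 2 there were 3 calls in all. The machinery that senses oxygen and forms hypoxia-inducible factor had 0 of 15 called and a median difference of 0.01, and 4 at an unadjusted limma p under 0.05. Hif1a stood at 1.55, 1.74 and 1.93 in knockouts and at 1.74, 1.68 and 2.07 in controls (difference -0.09 ± 0.19). Egln2 had the smallest p of the list, at 3.01, 2.44 and 2.68 in knockouts and 2.01, 1.94 and 1.54 in controls (difference 0.88 ± 0.22, limma adjusted p = 0.0553). Pyruvate dehydrogenase and the citric acid cycle, which burn pyruvate in mitochondria, had 0 of 20 called, 0 at an unadjusted limma p under 0.05 and a median of 0.02. Dlat had the smallest p there (difference -0.42 ± 0.19, limma adjusted p = 0.178). In the pentose phosphate pathway, a side branch of glucose 6-phosphate, 0 of 6 were called by limma, 0 at an unadjusted p under 0.05, with a median of -0.16 and the smallest p for Rpe (-0.52 ± 0.25, limma adjusted p = 0.196).

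Among other hypoxia-induced genes, 7 of 26 measured fell and 1 rose, where 5.31% and 5.24% of all genes did. The median difference was -0.20, and -0.31 on the same day. Angptl4, a secreted inhibitor of lipoprotein lipase, stood at 0.53, 0.64 and 0.33 in knockouts and at 1.98, 1.80 and 1.99 in controls, 2.69-fold lower (difference -1.43 ± 0.16, limma adjusted p = 0.00672). Vldlr, a lipoprotein receptor, stood at -0.17, 0.58 and 0.04 in knockouts and at 1.83, 1.52 and 1.55 in controls (difference -1.48 ± 0.23, limma adjusted p = 0.0173). Ppp1r3c, which brings protein phosphatase to glycogen, stood at -3.05, -2.98 and -2.73 in knockouts and at -1.74, -1.62 and -1.65 in controls (difference -1.25 ± 0.16, limma adjusted p = 0.00938). In these 3 genes every knockout lay below every control, as in 19.1% of all genes. Hmox1, the enzyme that breaks down heme, went the other way, at 2.84, 2.35 and 2.34 in knockouts and 0.76, 1.23 and 1.59 in controls (difference 1.32 ± 0.26, limma adjusted p = 0.0333). The other 4 lower genes, named after their values were seen, were Fam162a, Loxl2, Stc2 and Plod2, with differences of -1.10, -1.07, -0.98 and -0.91. Loxl2 and Plod2 modify collagen lysines, while Plod1, a relative of Plod2, had a difference of 0.09 ± 0.17. The Angptl4 call held without each array in turn. Ppp1r3c lost its call without control 2 (limma adjusted p = 0.0569), and Vldlr and Hmox1 theirs without knockout 1 (0.0718 and 0.117), knockout 3 (0.0785 and 0.101) or control 2 (0.0750 and 0.122).

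Glycolytic isoforms outside the member list held the 3 largest falls called in the related lists. Of 19 measured, 3 fell and 1 rose, where 5.31% and 5.24% of all genes did, with a median of 0.18. Pgam2, the muscle phosphoglycerate mutase, stood at -2.37, -2.91 and -2.20 in knockouts and at 0.50, -0.05 and -0.08 in controls, 6.13-fold lower (difference -2.62 ± 0.26, limma adjusted p = 0.00478). Eno3, the muscle enolase, stood at 0.92, 0.83 and 0.83 in knockouts and at 3.62, 2.71 and 2.63 in controls, 4.37-fold lower (difference -2.13 ± 0.28, limma adjusted p = 0.0110). Slc2a4, the insulin-responsive transporter GLUT4 of muscle and fat, stood at -2.58, -2.33 and -2.59 in knockouts and at -0.02, -0.85 and -1.08 in controls (difference -1.85 ± 0.29, limma adjusted p = 0.0179). In the 3 muscle isoforms every knockout lay below every control, as in 19.1% of all genes. The forms of the same steps in the member list, Pgam1, Eno1 and Slc2a1, had differences of 0.22, -0.01 and -0.13. On control 1, where the heart marker list had its highest level, Pgam2, Eno3 and Slc2a4 were also highest; the part of heart muscle in these falls was not tested. Pfkfb2, another activator of phosphofructokinase, rose, from -2.52, -2.46 and -2.35 in controls to -1.70, -1.85 and -1.76 in knockouts (difference 0.67 ± 0.14, limma adjusted p = 0.0384), in the direction opposite to Pfkfb3.

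Among Myc family genes and regulators of glycolysis, 1 of 12 was called, where 10.6% of all genes were. Sesn2, a stress-induced inhibitor of mTOR complex 1, stood at 3.85, 4.39 and 3.95 in knockouts and at 2.96, 3.35 and 3.23 in controls (difference 0.89 ± 0.21, limma adjusted p = 0.0479). Sesn2 and Pfkfb2 rested on single arrays: Sesn2 lost its call without any 1 of the 6 (adjusted p of 0.0529 to 0.136), and Pfkfb2 without knockout 1, knockout 3, control 2 or control 3 (0.0795 to 0.155). Slc2a4 lost its call without knockout 1, knockout 3 or control 2 (0.0693 to 0.0843) and Eno3 without knockout 1 or knockout 3 (0.0597 and 0.0540), while Pgam2 kept it without each array in turn.

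**Figure D4:**
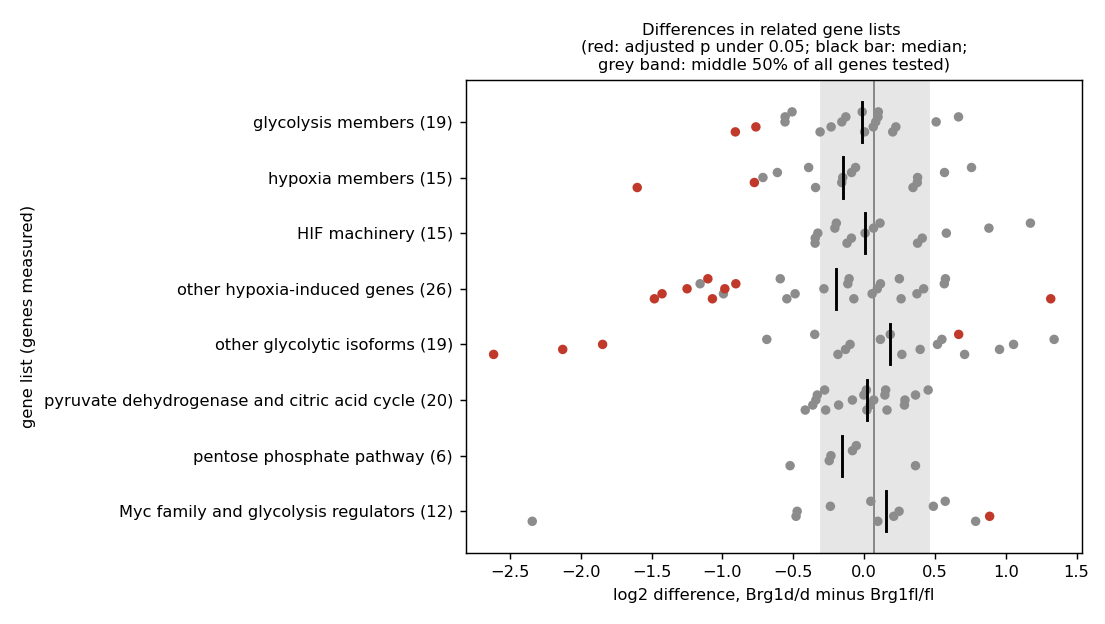
Log2 difference, Brg1d/d minus Brg1fl/fl (x axis), of each measured gene in the 2 member lists and 6 related lists (y axis, number measured in brackets); red points have a limma adjusted p under 0.05, black bars are medians, and the grey band holds the middle 50% of all genes tested. The medians of all lists lie between -0.20 and 0.18. The lowest point is Pgam2 at -2.62, and the next is Ppargc1a at -2.34, which was not called (limma adjusted p = 0.0546).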

How the data were processed

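RNA from whole embryos (E8.5) was labelled with Cy3, per the labels. The scanner files hold intensity values (background-corrected processed signal) that the authors made with Agilent Feature Extraction 9.5, per the submitters' processing notes, without scaling between arrays. The deposited files also give raw mean and local background intensity, and spot flags coded 0 or 1, of unit other. The deposited series table of intensity equalled the processed signal (100% of spots, relative tolerance 0.0001), and 0 of its columns belonged to no sample.

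Outlier spots, 53 to 83 an array, and control spots were dropped, spots of a probe averaged as log2, and the array's 75th percentile subtracted (957.5 to 1627 units). A probe was kept where the 3 arrays of 1 or both genotypes were flagged well above background (27847 probes), and a gene was read through its probe with the highest mean. Of 41174 probes, 32719 took a gene name from a RefSeq table of GRCm38.p6: 22951 by accession, 6659 by symbol and 3109 by synonym. Groups were compared with limma 3.58.1 in R 4.3.3 (lmFit and eBayes, two-sided) with Benjamini-Hochberg adjustment over all kept probes. The p-values measure the spread between 3 samples a group, and the number of arrays limits their precision. The fit was tested on simulated data. Python 3.11.15 and matplotlib 3.10.9 read files and drew plots.

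The members and lists were chosen with earlier results of these data known. The text names all members, and of each related list the 4 largest differences among genes that passed, or else the gene with the smallest p. Lists were described by counts and medians, with no test. Lists of heart, red cell, yolk sac, trophoblast, decidua and endothelial markers were read as mean levels. Yolk sac markers averaged 4.09 to 4.32 in knockouts, and 1.99, 4.66 and 4.75 in controls 1, 2 and 3. List genes without a kept probe were Gapdh, Rpia, Lox, Zfp395, Pgk2, Tpbpa and Pgr. Alternatives were quantile and median scaling, normexp with an offset of 50, filters on dim probes, the series table, a trend and robust prior, the mean of probes, blocks for scan day, slide, replicate number and a split of the arrays by spike-in signal that no label names, and each array left out.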

Additional observations from a re-analysis of the deposited data

How the results depend on the processing

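Limits: 3 arrays a group, with knockouts 1 and 3 on scan days and in a spike-in class without controls. Members called numbered 4, and 1 with no filter on dim probes, 1 with the replicate block (P4ha2 both times) and 1 to 5 without single arrays. A block for scan day or for the spike-in split (knockouts 1 and 3 against the rest, read from the data) leaves only knockout 2 to compare with the controls. Calls lost with these blocks therefore cannot show that a difference is absent. Of all genes 1585 were called, 694 with no filter, 0 with scan day (1793 unadjusted), 122 with the spike-in split, 572 with the replicate block and 308 (without control 2) to 2917 (without knockout 2) without single arrays. Related-list genes called numbered 13, 8 with no filter, 0 with scan day (16 unadjusted), 1 with the spike-in split (Pgam2), 5 with the replicate block and 3 to 18 without single arrays. The cause was not tested. Same-numbered samples deviated from their group means with correlations of -0.13, 0.08 and 0.09. Knockouts 2 and 3 correlated best with the control of their own number, and knockout 1 with control 3. Controls 1, 2 and 3 correlated best with knockouts 2, 1 and 1. With 3 arrays a group and unlike scan days, these values cannot decide whether same-numbered samples were paired. The members' median of -0.11 kept its sign under all 18 alternatives, from -0.21 with median centring, which moved the all-gene median from 0.07 to -0.03, to -0.06. Quantile and median scaling, the stricter filter and the series table called the same 4 members, normexp and the trend with robust prior also Bnip3, and slide as a random block all but Hk2. Of 846 values of 47 named genes, 748 kept their side of the threshold (37 of these, all of members not called, with the opposite sign), 87 no longer passed, 11 newly passed and 0 of the calls reversed. Among members not called, 9 changed sign in at least 1 alternative: Hk1, Aldoa, Pgk1, Pgam1, Eno1, Eno2, Pkm, Adm and Mxi1.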

Other observations

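Gapdh was followed through 2 probes with other names in the array's annotation, whose entries list the accession of Gapdh among several. The probe named MGC68323 stood at 6.98, 6.61 and 6.91 in knockouts 1, 2 and 3 and at 6.72, 6.64 and 6.58 in controls 1, 2 and 3, a difference of 0.19 ± 0.16 (limma adjusted p = 0.453). The probe named LOC380687 stood at 6.69, 6.27 and 6.80 in knockouts and at 6.38, 6.50 and 6.34 in controls, a difference of 0.18 ± 0.19 (limma adjusted p = 0.531). Both overlapped between groups, with knockout 2 below knockouts 1 and 3, as for Tpi1, Pgk1 and Pgam1 of lower glycolysis. Gapdh has many near-identical pseudogene copies, and these probes cannot tell them from the gene.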
